A study of Saccharomyces cerevisiae with 6 samples.

Results

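The inositol and phospholipid synthesis genes described here are the 10 budding yeast genes INO1, ITR1, CHO1, PSD1, CHO2, OPI3, CKI1, INO2, INO4 and OPI1. They were chosen by name, as the textbook genes that supply inositol, build phosphatidylserine, phosphatidylethanolamine and phosphatidylcholine and control both. All 10 are among the 6442 listed genes, and all 10 passed the filter on low counts that kept 5904 genes for testing. Total RNA of 2 Saccharomyces cerevisiae strains was sequenced, with 3 libraries labelled S3 and 3 labelled H0. The question behind the comparison was how gene expression differs between a carotenoid-producing strain whose synthetic chromosome had been rearranged by SCRaMbLE (Cre-mediated recombination between loxPsym sites) and the strain it came from.

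S3 was taken as yJBH012, 1 haploid SCRaMbLEd clone that was picked for its darker colony colour and that lacks the YEL014C-YEL013W segment. H0 was taken as its parent yJBH000, since the transcriptomes of only these strains are described. Both strains are BY4741-derived haploids that carry synV, the synthetic form of chromosome V, in place of the native one, and both hold crtE, crtI and crtYB with a Leu2 marker at the CAN1 locus of synV. The labels give synV as the genotype of all 6 samples and state growth in flasks for 12 h at 30 °C. The published methods name YPD (yeast extract, peptone and glucose) as the medium of both strains, with harvest in exponential phase. The inositol content of this medium is not given in the sources used here. Nothing in the labels says whether the 3 libraries of a strain came from separate cultures, so the p-values measure only the spread between these libraries. With 1 clone, the named deletion cannot be told apart from any other change that this clone carries.

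Yeast makes inositol from glucose 6-phosphate, with Ino1 as the committed enzyme, and also takes it up through Itr1. Inositol joins CDP-diacylglycerol to form phosphatidylinositol, while the same CDP-diacylglycerol feeds a second branch that runs through phosphatidylserine and phosphatidylethanolamine to phosphatidylcholine. In the textbook account, the basic helix-loop-helix pair Ino2 and Ino4 activates these genes from an upstream element with the core CATGTG, and the repressor Opi1 shuts them down. Opi1 is held at the endoplasmic reticulum by phosphatidic acid and the tether Scs2, and it enters the nucleus when added inositol draws phosphatidic acid into phosphatidylinositol.

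The libraries held 17675299 to 21568860 counts in S3 and 23340054 to 25333938 counts in H0. VAC8 (YEL013W) had 0, 0 and 1 counts in S3, against 2532, 2473 and 2216 counts in H0, and YEL014C had 0 in each S3 library, against 84, 83 and 82 counts in H0. The 20 most abundant genes took 15.3 to 16% of the counts in S3 and 11.2 to 11.5% in H0. Scaling by total counts alone, in place of the TMM factors used throughout (a trimmed mean that sets the typical gene near no change), moved the all-gene median of the log2 fold changes to -0.35, against -0.01. It lowered the log2 fold changes given here by about that shift, and the share of called genes that were higher in S3 was 25.2% with it, against 48.6% with TMM. Replicate 1 of H0 stood apart from the other libraries of its strain on the second principal component. Leaving it out moved no member's log2 fold change by more than 0.05.

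Upstream sequences of 8 of the 10 genes, all but CHO2 and OPI1, hold the CATGTG core. They are shown because the textbook account given above names this element. They were read from the RefSeq R64 reference genome, in windows of 250 bases before to 50 bases after the start codon, and not from the strains themselves, so that the CHO1 line shows native chromosome V and not synV. Capitals mark the core, which reads CACATG where it lies on the strand opposite to the gene, and all lines run 5′ to 3′ on the gene's strand. The second PSD1 match, at 240, is not printed, and the INO2 core overlaps a match on the opposite strand that starts at 146. The number in each name is the distance in bases from the first capital to the start codon.
INO1 at 243, chrX:136154-136183, minus strand: aatgcggCATGTGaaaagtattgtctattt
INO1 at 178, chrX:136089-136128, minus strand: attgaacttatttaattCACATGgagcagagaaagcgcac
ITR1 at 221, chrIV:1445666-1445705, minus strand: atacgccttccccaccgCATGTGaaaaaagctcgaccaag
CHO1 at 159, chrV:208611-208650, minus strand: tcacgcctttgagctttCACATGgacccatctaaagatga
PSD1 at 164, chrXIV:317813-317852, minus strand: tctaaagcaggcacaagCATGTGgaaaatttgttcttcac
OPI3 at 212, chrX:573125-573164, minus strand: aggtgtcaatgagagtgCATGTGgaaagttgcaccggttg
OPI3 at 148, chrX:573061-573100, minus strand: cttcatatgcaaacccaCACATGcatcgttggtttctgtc
CKI1 at 193, chrXII:408235-408274, plus strand: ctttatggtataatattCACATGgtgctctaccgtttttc
INO2 at 144, chrIV:699590-699629, minus strand: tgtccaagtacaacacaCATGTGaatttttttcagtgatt
INO4 at 121, chrXV:111985-112024, minus strand: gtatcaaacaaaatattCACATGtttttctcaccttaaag

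Of the 10 members, 6 were lower in S3 (INO1, ITR1, CHO1, OPI3, CKI1 and INO2), 2 were higher (CHO2 and INO4, although INO4 was at a log2 fold change of -0.02 and lost its call under total-count scaling), and PSD1 and OPI1 did not pass the test. The test was edgeR's quasi-likelihood fit to the counts of all 5904 genes, and a gene passed when its p, adjusted by Benjamini and Hochberg's method, was under 0.05. By this rule 70.5% of all tested genes differed between the strains, so that a call on its own is the common case in this comparison. Of all tested genes, 34.2% were higher and 36.2% lower in S3. A log2 fold change below -1 with a call was seen for 4.98% of all tested genes and for 2 members, OPI3 and INO1, while 10.7% of all genes and none of the members were called above 1. INO1, at -1.01, left this count in DESeq2's test and with DESeq2 size factors, at -0.99 in each. It also left with at least 10 counts in every library at -1.0, without replicate 1 of H0 at -0.99 and without replicate 1 of S3 at -0.92. The median log2 fold change was -0.18 over the members and -0.01 over all tested genes. In 8 of the 10 members the S3 and H0 libraries did not overlap in CPM (counts scaled to a common, TMM-adjusted library size), against 75.5% of all tested genes.

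**Figure D1:**
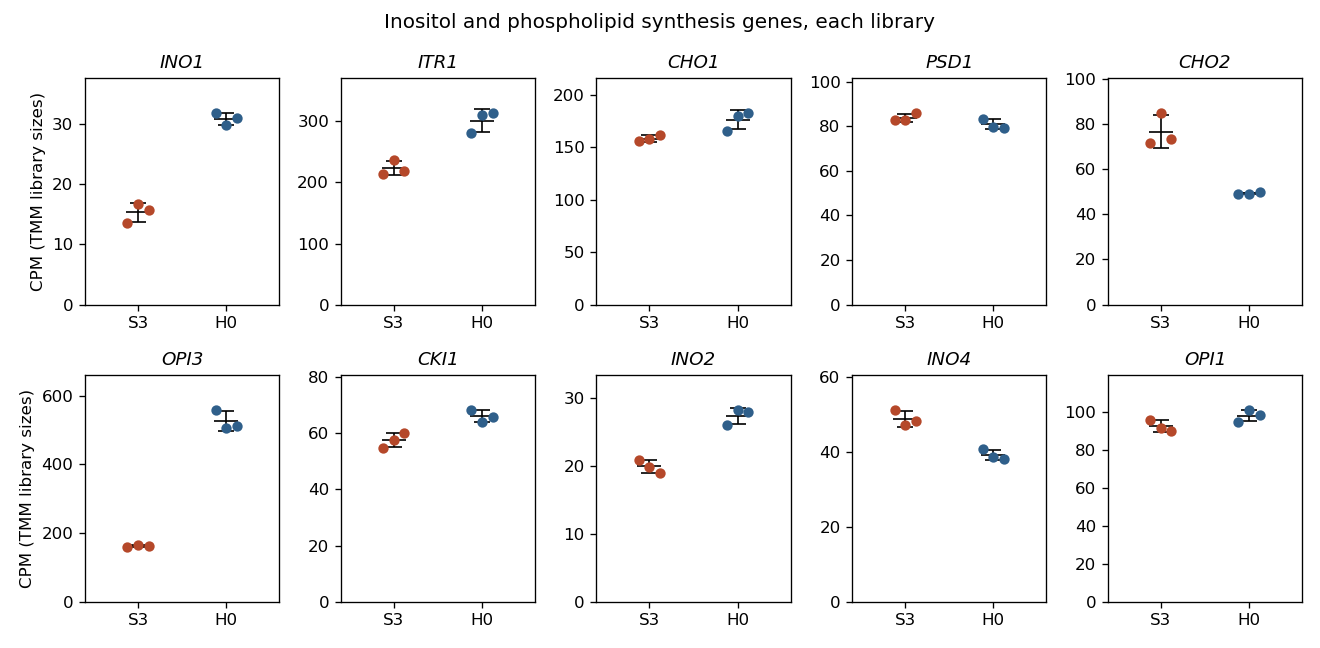
Abundance of the 10 members in each library, in CPM at TMM-scaled library size on a linear axis from 0, with S3 left of H0. Points are libraries, and bars give the mean and SD of 3 libraries. OPI3 sits at 158 to 165 CPM in S3 and at 504 to 558 CPM in H0, whereas the points of PSD1 and OPI1 overlap between the strains.

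The genes of inositol supply were both lower in S3. INO1 (YJL153C), which encodes inositol-3-phosphate synthase, had 13.6, 16.7 and 15.7 CPM in S3, against 31.8, 29.8 and 31.0 CPM in H0. Every S3 library was thus below every H0 library, and the mean was 15.3 ± 1.57 CPM in S3 and 30.9 ± 1.01 CPM in H0 (SD, n = 3 each). The log2 fold change of INO1 was -1.01 (SE 0.09, 95% interval -1.22 to -0.80), a 2.01-fold lower level, with an adjusted p of 5.10e-05 in edgeR's test. These are small counts, 227, 323 and 245 in S3 and 865, 844 and 804 in H0. INO1 was the least abundant of the members per length in S3. In the ranking of all 5904 tested genes by log2 fold change it stood at place 296 from the lowest.

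ITR1 (YDR497C), the major inositol transporter of the plasma membrane, had 215, 237 and 219 CPM in S3, against 281, 310 and 314 CPM in H0. The strains did not overlap, and the log2 fold change was -0.43 (SE 0.07, 95% interval -0.59 to -0.27, adjusted p = 9.11e-04 in edgeR's test). The coding sequence of ITR1 matches that of its paralog ITR2 at 76.1% identity over 87.6% of its length, and how reads shared by the 2 were counted is not given in the sources used here. ITR2, the minor transporter, was also lower, with a log2 fold change of -0.24 (adjusted p = 0.00613 in edgeR's test). Of the inositol monophosphatases, which release free inositol from the product of Ino1, INM2 was lower by more than ITR1, with 67.2, 66.5 and 68.4 CPM in S3 and 119, 114 and 112 CPM in H0, whereas the libraries of INM1 overlapped between the strains. The log2 fold change was -0.77 for INM2 (adjusted p = 1.22e-05 in edgeR's test) and -0.10 for INM1 (adjusted p = 0.342 in edgeR's test, and 0.0152 at a log2 fold change of -0.19 without replicate 1 of H0, with -0.43 and 0.00195 under total-count scaling).

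The 4 members of the branch from CDP-diacylglycerol to phosphatidylcholine did not move as a block. The 2 methylation genes moved in opposite directions, while the genes of the opening steps differed little with TMM factors. CHO1 (YER026C), the phosphatidylserine synthase and the only member on synV, had 156, 157 and 162 CPM in S3, against 166, 180 and 183 CPM in H0. Its lowest H0 library, replicate 1, lay close to the S3 values. The log2 fold change of CHO1 was -0.15 (SE 0.06, 95% interval -0.29 to -0.02, adjusted p = 0.0407 in edgeR's test). This call was lost in DESeq2's Wald test (-0.14, adjusted p = 0.0586), with the replicate number as a block (-0.15, adjusted p = 0.0659 in edgeR's test), and without any 1 of 5 libraries. The adjusted p of CHO1 in edgeR's test was 0.126, 0.112 and 0.0711 without replicate 1, 2 and 3 of S3, and 0.125 and 0.139 without replicate 2 and 3 of H0, while it was 9.48e-04 at a log2 fold change of -0.20 without replicate 1 of H0. Under total-count scaling CHO1 was called lower at -0.49 (adjusted p = 8.14e-05 in edgeR's test).

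PSD1 (YNL169C), the mitochondrial phosphatidylserine decarboxylase, had 82.7, 82.6 and 85.9 CPM in S3, against 83.4, 79.6 and 79.4 CPM in H0. The libraries of both strains interleaved, and the log2 fold change of 0.05 (SE 0.05, 95% interval -0.06 to 0.17) gave an adjusted p of 0.366 in edgeR's test, whereas under total-count scaling PSD1 was called lower at -0.28 (adjusted p = 0.0015 in edgeR's test). PSD2, which encodes the decarboxylase outside mitochondria, was lower in S3, at 105, 107 and 107 CPM, against 159, 134 and 134 CPM in H0, with a log2 fold change of -0.42 (adjusted p = 0.00186 in edgeR's test). Whether PSD1 and PSD2 differed from each other in their change was not tested.

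CHO2 (YGR157W) encodes the methyltransferase that adds the first methyl group to phosphatidylethanolamine. It had 71.4, 84.8 and 73.5 CPM in S3, against 49.0, 48.9 and 49.6 CPM in H0, with replicate 2 of S3 the highest of the 6 libraries. The mean was 76.6 ± 7.21 CPM in S3 and 49.2 ± 0.407 CPM in H0 (SD, n = 3 each), and the log2 fold change was 0.64 (SE 0.07, 95% interval 0.47 to 0.81, adjusted p = 1.60e-04 in edgeR's test), a 1.56-fold higher level. CHO2 was the only member that was higher in S3 under every alternative tried, including total-count scaling at 0.31. It is also 1 of the 2 members without a CATGTG match in its promoter window.

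OPI3 (YJR073C), which encodes the methyltransferase of the last 2 methylation steps, had the largest difference among the members. It had 158, 165 and 161 CPM in S3, against 558, 504 and 511 CPM in H0. The mean was 161 ± 3.76 CPM in S3 and 525 ± 29.3 CPM in H0 (SD, n = 3 each), a gap far wider than either SD. The log2 fold change was -1.70 (SE 0.06, 95% interval -1.85 to -1.55), a 3.25-fold lower level, with an adjusted p of 2.03e-06 in edgeR's test. OPI3 stood at place 75 from the lowest among the 5904 tested genes, and its counts were 2634, 3199 and 2515 in S3 and 15177, 14277 and 13279 in H0.

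CKI1 (YLR133W), the choline kinase that opens the Kennedy route to phosphatidylcholine from free choline, had 55.0, 57.7 and 60.2 CPM in S3, against 68.4, 64 and 66.0 CPM in H0. The strains did not overlap, yet the difference was small, with a log2 fold change of -0.20 (SE 0.06, 95% interval -0.33 to -0.07, adjusted p = 0.014 in edgeR's test). Without replicate 1 of S3, its lowest library, the call was lost at a log2 fold change of -0.16 (adjusted p = 0.0713 in edgeR's test). Under total-count scaling CKI1 was lower at -0.53 (adjusted p = 9.67e-05 in edgeR's test). PCT1, the enzyme that makes CDP-choline in the next step, was lower in S3 as well, at 137, 139 and 136 CPM, against 171, 185 and 180 CPM in H0 (log2 fold change -0.38, adjusted p = 3.71e-04 in edgeR's test). EKI1, the ethanolamine kinase, was lower in S3 at a log2 fold change of -0.33 (adjusted p = 0.00195 in edgeR's test). CPT1, the cholinephosphotransferase that ends this route, had a log2 fold change of -0.16 (adjusted p = 0.11 in edgeR's test), and passed only at -0.22 without replicate 1 of H0 (adjusted p = 0.00691), with a replicate block at -0.16 (adjusted p = 0.0487) and under total-count scaling or with FPKM at -0.49 to -0.48. The choline transporter gene HNM1 had a log2 fold change of 0.05 (adjusted p = 0.615 in edgeR's test), which was -0.28 under total-count scaling and -0.04 without replicate 1 of H0.

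The 3 regulators differed from each other. INO2 (YDR123C), which encodes the activator subunit with the transcriptional activation domains, had 20.9, 19.8 and 18.9 CPM in S3, against 26.0, 28.2 and 27.8 CPM in H0. No library overlapped, and the log2 fold change was -0.46 (SE 0.07, 95% interval -0.63 to -0.29, adjusted p = 9.20e-04 in edgeR's test) on counts of 348, 383 and 296 in S3 and 706, 798 and 723 in H0. INO4 (YOL108C), its DNA-binding partner, had 51.2, 47.1 and 48.2 CPM in S3, against 40.7, 38.7 and 38.2 CPM in H0. The log2 fold change of INO4 was 0.32 (SE 0.06, 95% interval 0.18 to 0.45, adjusted p = 0.00177 in edgeR's test), but -0.02 (adjusted p = 0.801) under total-count scaling, so its direction rests on the scaling between libraries.

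OPI1 (YHL020C), the repressor, had 95.9, 91.5 and 89.8 CPM in S3, against 94.9, 101 and 98.4 CPM in H0. The strains overlapped, and the log2 fold change of -0.09 (SE 0.05, 95% interval -0.21 to 0.03) did not pass the test (adjusted p = 0.167 in edgeR's test), although it did under total-count scaling at -0.42 and under upper-quartile scaling at -0.13 (adjusted p = 0.0483 in edgeR's test). SCS2, the tether of Opi1 and likewise a gene of chromosome V, had 247, 232 and 232 CPM in S3, against 174, 206 and 211 CPM in H0. Its log2 fold change was 0.27 (adjusted p = 0.0218 in edgeR's test), but -0.07 under total-count scaling, and 0.24 without replicate 1 of S3, where the call was lost (adjusted p = 0.0658 in edgeR's test).

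**Figure D2:**
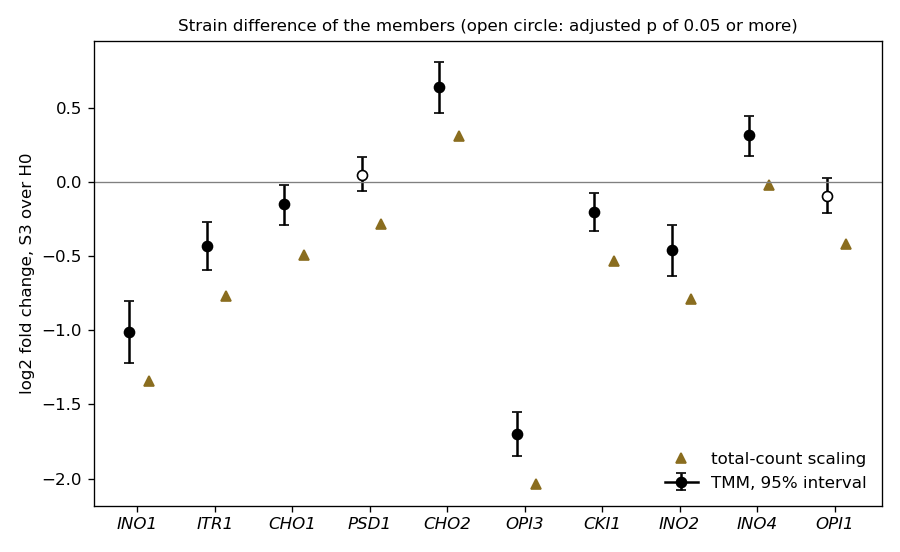
Log2 fold change of each member, S3 over H0, with the 95% interval (bars) at TMM scaling and the value under total-count scaling as triangles. OPI3 at -1.70 and INO1 at -1.01 lie lowest and CHO2 at 0.64 highest, while INO4 and PSD1 lie above 0 with TMM and at -0.02 and -0.28 with total counts.

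A ratio of 2 genes within a library does not depend on the scaling between libraries. Such ratios were taken from FPKM, the deposited values per gene length, and with 3 libraries against 3 the smallest p of an exact two-sided permutation test is 0.1, so none of the 6 ratios could pass 0.05. OPI3 to CHO2, the ratio of the second to the first methylation gene, was 9.29, 8.19 and 9.20 in S3, against 47.9, 43.4 and 43.3 in H0. It was 5.05-fold lower in S3 without overlap, with a log2 difference of -2.33 (exact permutation p = 0.1, adjusted 0.12 over the 6 ratios). CHO2 to CHO1 was 0.146, 0.172 and 0.145 in S3, against 0.0941, 0.0866 and 0.0865 in H0, which is a log2 difference of 0.79.

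Among the regulators, INO2 to INO4, the partners of the activator, stood at 0.203, 0.209 and 0.196 in S3, against 0.318, 0.363 and 0.363 in H0, a log2 difference of -0.78. OPI1 to INO2, repressor to activator, was 3.46, 3.48 and 3.57 in S3, against 2.75, 2.70 and 2.66 in H0, a log2 difference of 0.37. INO1 to ITR1, synthesis to uptake, was 0.0695, 0.0773 and 0.0783 in S3, against 0.124, 0.105 and 0.108 in H0, a log2 difference of -0.58. The ratios OPI3 to CHO2, CHO2 to CHO1, INO2 to INO4, OPI1 to INO2 and INO1 to ITR1 each had no overlap between the strains. With 3 libraries against 3, a lack of overlap by itself gives the smallest p of the exact test, 0.1, here adjusted 0.12. Ratios of other gene pairs were not examined, and 75.5% of all tested genes did not overlap in CPM. CKI1 to CHO1, which compares the entries of both routes to phosphatidylcholine, overlapped at 0.168, 0.174 and 0.177 in S3, against 0.196, 0.169 and 0.172 in H0 (log2 difference -0.05, exact permutation p = 0.8, adjusted 0.8).

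**Figure D3:**
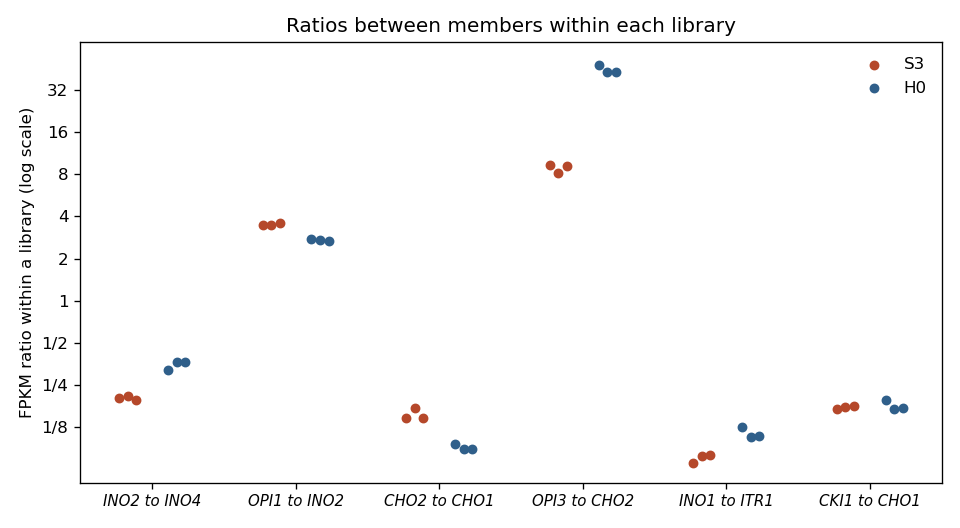
Ratio of the FPKM of 2 members within each library, on a log axis, with S3 left of H0. Each point is a library. OPI3 to CHO2 lies between 8.19 and 9.29 in S3 and between 43.3 and 47.9 in H0, and CKI1 to CHO1 is the pair whose points overlap.

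Per gene length, the members spanned a wide range of levels within each strain. In S3, OPI3 was the most abundant at 226 to 239 FPKM, ahead of CHO1 at 167 to 172, ITR1 at 109 to 121, INO4 at 92.7 to 99.8, OPI1 at 65.4 to 70.2 and PSD1 at 48.9 to 50.6 FPKM. CKI1 at 28.0 to 30.4 and CHO2 at 24.3 to 29.2 FPKM came next in S3 and overlapped, and INO2 at 18.3 to 20.3 and INO1 at 7.55 to 9.35 FPKM were the lowest. In H0 the order of the upper 7 genes was the same, with OPI3 at 907 to 1024, CHO1 at 227 to 245, ITR1 at 182 to 199, INO4 at 93.2 to 102, OPI1 at 89.0 to 93.0, PSD1 at 58.8 to 63.2 and CKI1 at 40.9 to 44.5 FPKM. The lower end of H0 differed in order, with INO2 at 32.3 to 34.4 FPKM above INO1 at 20.8 to 22.6 and CHO2 at 20.9 to 21.4 FPKM, which overlapped each other. Among all tested genes, 86.5% lay below OPI3 in S3 and 96.4% in H0, and 8.13% lay below INO1 in S3 and 18.5% in H0.

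Matches to the CATGTG core were found in the promoter windows of 8 of the 10 members, against 6.93% of all 6001 windows, on either strand. The members were chosen by name, and the textbook account places such genes under this element, so a share above that of all windows was built into the choice. The longer form CATGTGAA, which contains the core, was found for INO1, ITR1, CHO1, CKI1, INO2 and INO4, that is 6 members, against 0.7% of all windows. No member window held GCCGCCGA, a core of an upstream repression site, which 0.95% of all windows held. CHO2 and OPI1 had no match to any of the 3 in these windows, and sequence further upstream was not searched. The genes with a core thus included the 6 members that were lower in S3, together with PSD1, which did not pass the test, and INO4, which was higher with TMM factors but at -0.02 under total-count scaling. Over the 398 tested genes with the core in their window, 32.2% were higher and 35.7% lower in S3 with a median log2 fold change of -0.03, and over the 41 tested genes with the longer form 34.1% were higher and 36.6% lower with a median of -0.01. These shares are close to those of all tested genes, 34.2% and 36.2%. A match is a run of letters in the reference and does not show binding.

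Around the members, 82 other genes of 9 lists (inositol supply, precursor supply, the CDP-diacylglycerol branch, the Kennedy route, phospholipases, signalling around Opi1, inositol sphingolipids, phosphoinositides and inositol polyphosphates) were examined. Of these, 26 were higher, 27 lower and 29 not called, against 34.2% higher and 36.2% lower of all 5904 tested genes. The median log2 fold change of the 82 was -0.01, the same as over all tested genes. With total-count scaling the split was 14 higher and 54 lower, against 1144 higher and 3401 lower of all 5904 tested genes. At a log2 fold change beyond 1, 5 of the 82 were higher in S3 and 0 were lower. Under total-count scaling 1 was higher (SUR1) and 5 were lower, CDS1 at -1.19, PIS1 at -1.14 and INM2 at -1.11 among them. The lowest of the 82 with TMM factors were FAB1 at -0.93 and LPP1 at -0.91, below CDS1 at -0.86. FAB1 and LPP1 are outside the rule for named genes and were chosen after their values were seen. With TMM factors, 630 of all 5904 tested genes were called above 1 and 294 below -1. Under total-count scaling these all-gene counts were 390 and 741. Without replicate 1 of H0, 3 of the 82 were higher beyond 1.

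At the branch point itself, a gene that makes CDP-diacylglycerol and the gene that joins it to inositol were lower. CDS1, the CDP-diacylglycerol synthase, had 96.1, 98.1 and 96.5 CPM in S3, against 171, 181 and 175 CPM in H0 (log2 fold change -0.86, adjusted p = 8.18e-06 in edgeR's test). PIS1, the phosphatidylinositol synthase, had 323, 320 and 320 CPM in S3, against 550, 562 and 577 CPM in H0 (log2 fold change -0.81, adjusted p = 1.58e-05 in edgeR's test). CDS1 and PIS1 had no overlap between the strains, and their differences were larger than that of CHO1, which uses the same substrate. CDS1 has the CATGTG core 162 bases before its start codon in the reference, and PIS1 has no match in its window. The core was found for 8 of the 82 pathway genes, against 6.93% of all windows. Of these 8 genes, 0 were higher, 4 lower and 4 not called, against 32.2% higher and 35.7% lower over the 398 tested genes with the core. The UME6 match lies inside the coding sequence, at base 31, and the ARG82 match starts 3 bases before the start codon. Whether the core went with a lower level was not tested.

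The list of genes that supply phosphatidic acid and CDP-diacylglycerol had 4 higher, 4 lower and 6 not called among 14 and a median log2 fold change of 0, but 1 higher and 10 lower under total-count scaling. SLC1, an acyltransferase that makes phosphatidic acid, had 120, 130 and 140 CPM in S3, against 56.1, 66.2 and 66.9 CPM in H0, a log2 fold change of 1.04 (adjusted p = 4.06e-05 in edgeR's test). DGK1, the diacylglycerol kinase, was lower at -0.20 (adjusted p = 0.0183 in edgeR's test), and lost its call when replicate 1 or 2 of S3 or replicate 2 or 3 of H0 was left out (adjusted p = 0.0604, 0.0596, 0.0638 and 0.0667 in edgeR's test). LPP1, a phosphatase gene and the lowest of this list, had 20.1, 22.4 and 20.7 CPM in S3, against 39.2, 40.9 and 38.9 CPM in H0. The log2 fold change of LPP1 was -0.91 (adjusted p = 2.13e-05 in edgeR's test). The phosphatase genes DPP1 and APP1 were not called, at -0.01 and 0.04. These 3 genes were named after their values were seen. PAH1, the phosphatidic acid phosphatase, was 77.1, 77.1 and 84.1 CPM in S3, against 76.6, 56.9 and 58.1 CPM in H0. Its log2 fold change of 0.31 (adjusted p = 0.0448 in edgeR's test) was -0.02 under total-count scaling and 0.46 without replicate 1 of H0, and the call was lost without any 1 of the other 5 libraries, at 0.24 to 0.34 (adjusted p = 0.0855 to 0.135 in edgeR's test), and with upper-quartile scaling at 0.27 (adjusted p = 0.09 in edgeR's test).

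Among the lists, the inositol sphingolipid genes stood highest, with 9 higher, 1 lower and 3 not called among 13 and a median log2 fold change of 0.68, against -0.01 over all tested genes. Of all tested genes, 34.2% were higher and 36.2% lower. The 9 lists were chosen with earlier results of these data known. The lower call of the sphingolipid list was lost without replicate 3 of H0 or replicate 2 of S3. Under total-count scaling the list had 8 higher and 3 lower, with a median of 0.35, against -0.35 over all tested genes. With TMM factors 3 of its genes were called above 1, and under total-count scaling SUR1 alone was, at 1.28, with LAC1 at 0.81 and IPT1 at 0.67. IPT1 lay at the limit, at 0.97 without replicate 1 of S3 and 0.98 without replicate 2 of H0. SUR1, a subunit of the mannosyltransferase that acts on inositol phosphorylceramide, had 290, 231 and 231 CPM in S3, against 91.2, 76.7 and 76.9 CPM in H0 (log2 fold change 1.62, adjusted p = 1.89e-05 in edgeR's test). LAC1, a ceramide synthase subunit, had 131, 135 and 134 CPM in S3, against 54.4, 63.4 and 63.3 CPM in H0 (log2 fold change 1.14, adjusted p = 1.09e-05 in edgeR's test). IPT1, which transfers the second inositol phosphate onto the sphingolipid, had 228, 209 and 212 CPM in S3, against 109, 105 and 110 CPM in H0 (log2 fold change 1.0, adjusted p = 7.60e-06 in edgeR's test). SUR1 and LAC1 have paralogs of 73.9% and 72.5% identity, CSH1 and LAG1, so that reads shared within each pair could be split in counting.

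The split of the other lists depended on the scaling. The CDP-diacylglycerol branch and cardiolipin list had 2 higher, 5 lower and 3 not called among 10 (median log2 fold change -0.16), against 1 higher and 8 lower under total-count scaling. A higher call of this list was also lost with the replicate block, with upper-quartile factors, and without replicate 2 or 3 of either strain. The Kennedy list had 0 higher, 3 lower and 4 not called among 7 (median -0.16), against 7 lower under total-count scaling and 5 lower without replicate 1 of H0. The phosphoinositide kinase and phosphatase list had 3 higher, 5 lower and 3 not called among 11 (median -0.04), with 8 lower under total-count scaling and 3 lower without any 1 of the S3 libraries. STT4, a phosphatidylinositol 4-kinase, was the gene above 1 in this list, with 121, 125 and 120 CPM in S3, against 56.5, 60.1 and 62.2 CPM in H0 (log2 fold change 1.03, adjusted p = 6.71e-06 in edgeR's test), and 0.70 under total-count scaling.

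The inositol supply list had 1 higher, 3 lower and 1 not called among 5 (median -0.22). Its higher call was GIT1, the glycerophosphoinositol transporter, which is outside the rule for named genes and was chosen after its values were seen. GIT1 had 5.03, 5.58 and 6.46 CPM in S3, against 4.74, 3.14 and 4.0 CPM in H0 (log2 fold change 0.52, adjusted p = 0.0435 in edgeR's test), and this call was lost under total-count and upper-quartile scaling, with the replicate block, and without any 1 library other than replicate 1 of H0. The phospholipases had 1 higher, 3 lower and 3 not called among 7 (median 0.02), with 0 higher and 5 lower under total-count scaling, and 2 higher without replicate 1 or 3 of H0 or replicate 3 of S3. Signalling around Opi1 had 4 higher, 3 lower and 2 not called among 9 (median -0.08), against 2 higher and 5 lower under total-count scaling. The inositol polyphosphate list had 2 higher, 0 lower and 4 not called among 6 (median -0.01), which turned to 0 higher and 4 lower under total-count scaling, and had 1 lower without replicate 1 of H0.

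**Figure D4:**
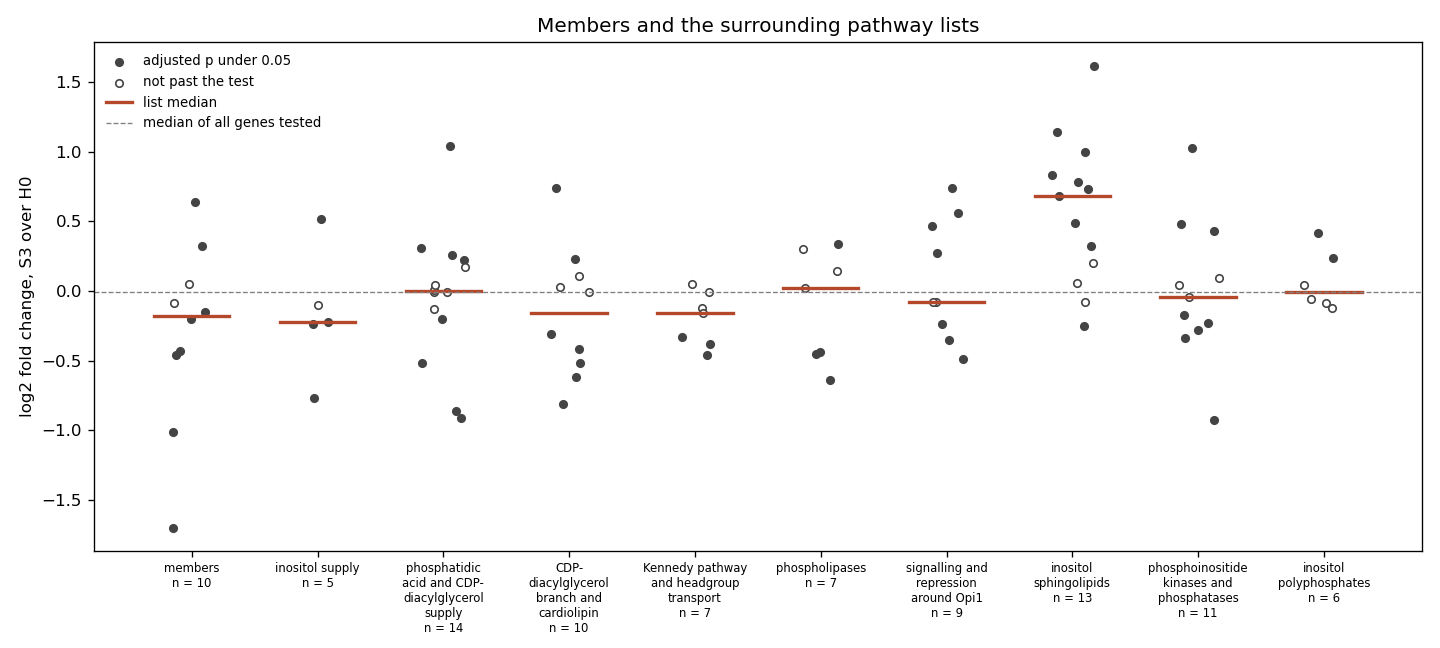
Log2 fold change, S3 over H0, of the 10 members and of the genes of the 9 pathway lists, 1 point per gene, with filled points at an adjusted p under 0.05, the list median as a bar and the median of all genes tested as a dashed line. The members' median lies at -0.18 and that of the inositol sphingolipid list at 0.68, and INO4, filled at 0.32, is at -0.02 under total-count scaling.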

How the data were processed

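Total RNA of S3 and H0 was sequenced from libraries made with the NEBNext Ultra kit. The authors deposited unnormalized read counts per gene and FPKM values derived from the same counts. The submitters' processing notes name HTSeq 0.6.1 and DESeq 1.18.0, without saying for which step. The aligner, the genome build and the use of strand are not given in the sources used here. Dividing counts by FPKM and library total gave 1 gene length in all libraries for each of 6243 genes (tolerance 0.001), and 99.9% of 6237 genes had the exon length of the R64 annotation, which was used for names (6436 of 6442 identifiers) and reference promoter sequences. The windows were extracted from that genome directly.

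Counts were tested in R 4.3.3 by glmQLFit and glmQLFTest of edgeR 4.0.16, with TMM factors after filterByExpr (strain as the single term, two-sided, Benjamini-Hochberg over 5904 genes, threshold 0.05). CPM used TMM-scaled library sizes. Alternatives used DESeq2 1.42.0, limma 3.58.1 (voom, and log2(FPKM + 1) or log2(FPKM + 0.1)), other scalings and filters, a replicate block and leaving out each library. The test script was checked on simulated data. Similar genes were found with BLAST 2.17.0. The members, the lists and the genes named were chosen with earlier results of these data known. Named by rule are all members, VAC8, YEL014C, 13 isozyme partners or next steps, and every listed gene called beyond a log2 fold change of 1. GIT1, LPP1, DPP1, APP1, FAB1, UME6 and ARG82 were named in addition, after their values were seen. Depth is given with the results, and the members had 227 to 15177 counts in a library. Replicates differed by more than counting error (chi-square per degree of freedom 7.13 to 85.4).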

Additional observations from a re-analysis of the deposited data

How the results depend on the processing

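INO1, ITR1, CHO2, OPI3 and INO2 kept direction and call in all 16 alternatives, and 140 of 160 values of the members did so. Of the 18 other genes named by rule 259 of 288 values did so, counting HNM1 without replicate 1 of H0 as kept. There HNM1 turned from 0.05 to -0.04 and was called in neither fit. CHO1 lost its call at -0.14 with DESeq2's test, with DESeq2 size factors and with at least 10 counts in every library, and at -0.15 with the replicate block; over the 6 fits that leave out a library it ranged from -0.20 to -0.13, and CKI1 from -0.22 to -0.16. Under total-count scaling or with FPKM, PSD1 was at -0.28, INO4 at -0.02, OPI1 at -0.42 and HNM1 at -0.28 to -0.27, PAH1 at -0.02 and -0.01, and SCS2 at -0.07 and -0.06. There 1 member was higher and 8 lower, and of the pathway genes 14 were higher and 53 or 54 lower. Of all 5904 tested genes, 1144 were higher and 3401 lower under total-count scaling. Total-count scaling changed the library scaling alone. OPI1 passed at -0.13 with upper-quartile factors. Leaving out a library gave 4 to 6 members lower. The ratio CKI1 to CHO1 had a log2 difference of -0.09 to 0.02 when a library was left out, turning to 0.02 without replicate 1 of H0.

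Same-numbered libraries did not deviate together (correlations -0.007, 0.077 and 0.077), so the numbers were not treated as pairs. A replicate block gave 2 members higher and 5 lower, and 1950 genes higher and 2048 lower of all. INO1 and INO2 had the fewest counts among the members.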
